A study of Rattus norvegicus with 40 samples.

Results

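The genes described here encode the aminoacyl-tRNA synthetases of the rat. They were chosen by name: every transcript cluster (the array's unit for 1 transcript locus) that the platform annotation ties to exactly 1 gene symbol of the synthetase pattern was taken, and where a gene had several clusters the one with the highest mean over all arrays was kept. This gave 30 genes from 31 transcript clusters, out of 14497 genes with a single symbol and 28826 clusters in all; only Hars1 had a second cluster, which was dim (mean log2 intensity 6.53, against 10.68 for the one kept). Of the 30, 17 encode cytosolic enzymes or their subunits (Aars1, Cars1, Eprs1, Farsa, Farsb, Hars1, Iars1, Lars1, Mars1, Nars1, Qars1, Rars1, Sars1, Tars1, Vars1, Wars1, Yars1), 11 encode mitochondrial enzymes (Aars2, Fars2, Hars2, Lars2, Nars2, Pars2, Rars2, Sars2, Tars2, Vars2, Yars2), and Gars1 and Kars1 encode enzymes made for both places. All 30 were above the intensity filter and were tested.

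The arrays measured RNA of Sprague Dawley rat livers in 3 models, each given rapamycin, an inhibitor of the kinase mTOR complex 1, or its solvent DMSO. The fetal model used fetuses given 50 µg of rapamycin or DMSO on gestation day 19, whose livers were collected on day 20 (4 livers each). In the regenerating model, adult rats of 125 to 150 g received 250 µg rapamycin per 100 g of body weight or DMSO 1 h before removal of most of the liver, and the remnant was collected 24 h later (3 livers each). In the refed model, adult rats of the same weight were fasted for 48 h, received the same dose of rapamycin or DMSO, and from 1 h after that injection had food for 3 h (3 livers each). By replicate number, each liver was taken to have given 2 arrays, so that 40 arrays fell into 12 groups. The first held RNA from pooled polysome preparations, the messages loaded with several ribosomes, and the second held total RNA. The labels call the replicates biological and do not say what was pooled. The DMSO livers carried the surgery, the fast and refeeding or the injection of the fetus as well.

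An aminoacyl-tRNA synthetase joins an amino acid to the transfer RNAs that carry it, and most amino acids have an enzyme of their own. Most cytosolic enzymes act on the transfer RNAs of the main translation machinery, while a separate set of nuclear genes encodes the enzymes imported into mitochondria. In the cytosol of animals Eprs1 (glutamate and proline), Iars1 (isoleucine), Lars1 (leucine), Mars1 (methionine), Qars1 (glutamine), Rars1 (arginine) and Kars1 (lysine) are held together in the multisynthetase complex. Many cytosolic synthetase genes are known targets of ATF4, the transcription factor of the amino acid response, and Lars1 is known in mammalian cells as a sensor of leucine upstream of mTOR complex 1.

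The stretches below show where a CCAAT-enhancer-binding protein and ATF (C/EBP-ATF) composite sequence lies in the promoters of cytosolic members, since the 7 that hold it are set beside the other searched members in the results that follow. RefSeq promoters of the GRCr8 assembly, running from 250 bases before to 50 after the start, were at hand for 28 of the 30 members (Rars1 and Gars1 had no entry). The 8 letters TTGCATCA, read on either strand, occurred in 7 of the 28, which were 7 of 16 cytosolic members and 0 of 11 mitochondrial members, against 0.795% of 33469 promoters. The looser form TGATGNAA occurred in the same 7 members and in 3.98% of promoters; it overlaps the first, as TTGCATCA is the reverse complement of TGATGCAA. The stretches of 6 of the 7 are shown. The capitals mark the match, each line reads 5′ to 3′ along the gene's strand, and the position is that of the first base of the match relative to the start.
Cars1 (chr1:208225334-208225363, minus strand, 17): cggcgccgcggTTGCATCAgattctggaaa
Iars1 (chr17:15193658-15193687, minus strand, -24): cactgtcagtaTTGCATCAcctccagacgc
Mars1 (chr7:65023752-65023781, minus strand, -17): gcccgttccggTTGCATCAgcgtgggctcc
Nars1 (chr18:60275778-60275807, minus strand, -14): cctaggtgatcTGATGCAAcgcttcagtca
Tars1 (chr2:62114811-62114840, minus strand, -27): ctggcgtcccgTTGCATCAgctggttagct
Yars1 (chr5:146820183-146820212, plus strand, 38): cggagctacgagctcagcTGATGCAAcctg

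The cytosolic and the mitochondrial histidine enzyme are neighbours. Hars1 lies on the minus strand and Hars2 on the plus strand, with only 143 bases between their starts. That stretch is shown because a cytosolic and a mitochondrial member share it. The capitals mark its 2 matches to the 7 letters CCGGAAG, an ETS-family core, read here on the plus strand as CTTCCGG.
Hars1-Hars2 (chr18:28672713-28672855, plus strand): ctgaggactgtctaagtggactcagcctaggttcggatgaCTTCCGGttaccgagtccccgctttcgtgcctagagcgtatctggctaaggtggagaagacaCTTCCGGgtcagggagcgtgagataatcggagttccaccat
CCGGAAG on either strand was in 13 of the 28 members' promoters (8 of 16 cytosolic, 4 of 11 mitochondrial and Kars1), against 8.75% of all promoters. The E-box letters CACGTG were in 5, against 6.42% of all promoters, and the CRE letters TGACGTCA in 0 of 28, against 1.83%. A match describes letters only.

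All values below are on the log2 scale of intensities, and levels are compared between groups for 1 gene, never between genes. Medians per array lay between 7.09 and 7.40. The 10 hepatocyte markers, among them Alb and Hnf4a, lay at or above percentile 93.4 of the clusters with a gene symbol on every array. For the 3 regenerating DMSO polysome arrays a time-point label names refeeding, while their titles and injection field name hepatectomy; the titles were followed, and the mean of 15 mitosis markers was 10.70 to 11.10 on these arrays, against 6.06 to 6.33 on the 6 refed polysome arrays.

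One liver stood apart. The refed DMSO liver numbered 3 exceeded both other livers of its group by more than 0.5 for 9 of 17 cytosolic members in total RNA (7.21% of all clusters did so) and for 5 of 17 in polysome RNA (10.5% of all clusters). It did so for 0 of 11 mitochondrial members in either fraction. On the other 38 arrays at most 3 cytosolic members exceeded the rest of their group by that margin. Wars1 (tryptophan) shows the size of the gap: total RNA of the refed DMSO livers gave 10.27, 10.42 and 11.77. The refed rapamycin changes, the polysome differences and the comparisons of total RNA between models are given with and without that liver.

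Across the 12 groups, the members were lowest mostly in regenerating livers given rapamycin and highest mostly in fetal livers. In bulk liver, fewer cells of a type and less RNA per cell cannot be told apart. The lowest of a member's 12 group means belonged to a regenerating rapamycin group for 23 of 30 members, 13 in polysome and 10 in total RNA. The highest belonged to a fetal group for 17 of 30 and to a refed group for 11. The same counts were not made over all clusters, so they do not show a trait particular to the synthetases. Iars1 had the widest range of group means, 1.61 (11.51 in total RNA of refed DMSO livers and 9.90 in polysome RNA of regenerating rapamycin livers), followed by Vars1 (valine) at 1.50, Lars1 at 1.40, Wars1 at 1.37 and the mitochondrial tyrosine enzyme Yars2 at 1.35. The narrowest was Kars1, whose group means stayed between 11.34 and 11.63.

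**Figure D1:**
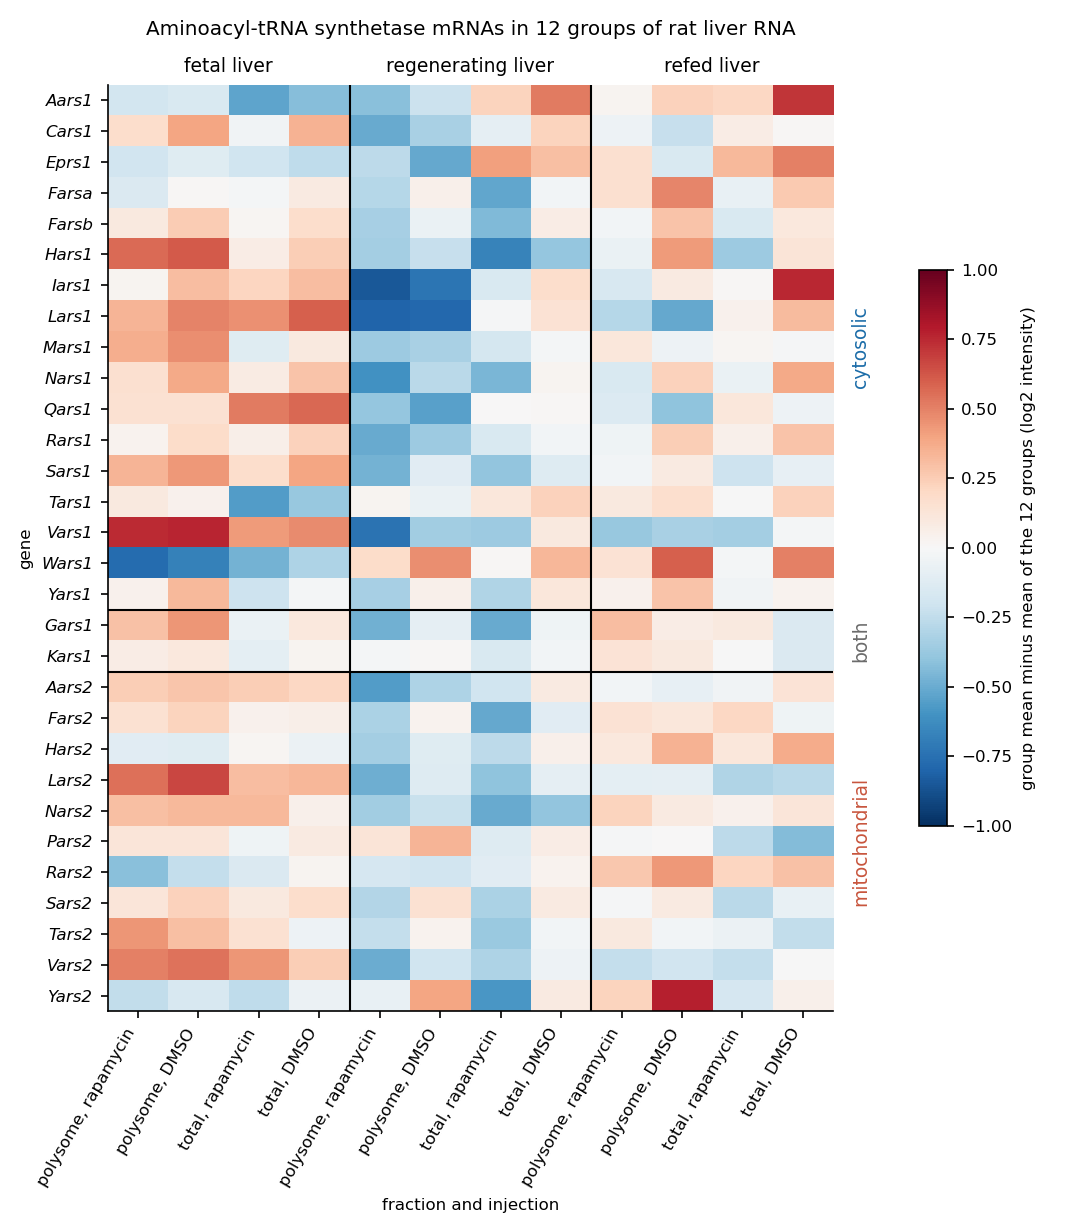
Mean log2 intensity of each of the 30 members (rows, by compartment) in each of the 12 groups (columns), as the difference from that gene's mean over the 12 groups. Regenerating rapamycin columns hold the lowest value of 23 members, fetal columns the highest value of 17. These counts were not made over all clusters.

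The cytosolic and the mitochondrial genes were then summarised on each array by their median difference from each gene's own mean over the 12 groups. In regenerating livers given rapamycin both medians were low: polysome RNA gave -0.52 to -0.28 for the cytosolic and -0.41 to -0.21 for the mitochondrial genes, and total RNA gave -0.20 to -0.10 and -0.43 to -0.29. The regenerating DMSO livers gave -0.29 to -0.16 and -0.28 to 0.19 in polysome RNA, and -0.06 to 0.18 and -0.14 to 0.09 in total RNA. The cytosolic minus mitochondrial difference averaged -0.25 ± 0.21 in polysome RNA and 0.10 ± 0.03 in total RNA of these DMSO livers (SD, n = 3 each), and the arrays of the 2 fractions did not overlap. In every other model and treatment, the differences of the polysome and the total arrays overlapped, except in regenerating livers given rapamycin (-0.10 ± 0.11 in polysome and 0.18 ± 0.07 in total RNA, SD, n = 3 each). The largest group difference, 0.28 ± 0.43 in total RNA of refed DMSO livers, came from liver 3, whose cytosolic median was 0.68 and mitochondrial median -0.06; the other livers had differences of -0.11 and 0.21. These medians describe the lists, and no test was made of them.

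**Figure D2:**
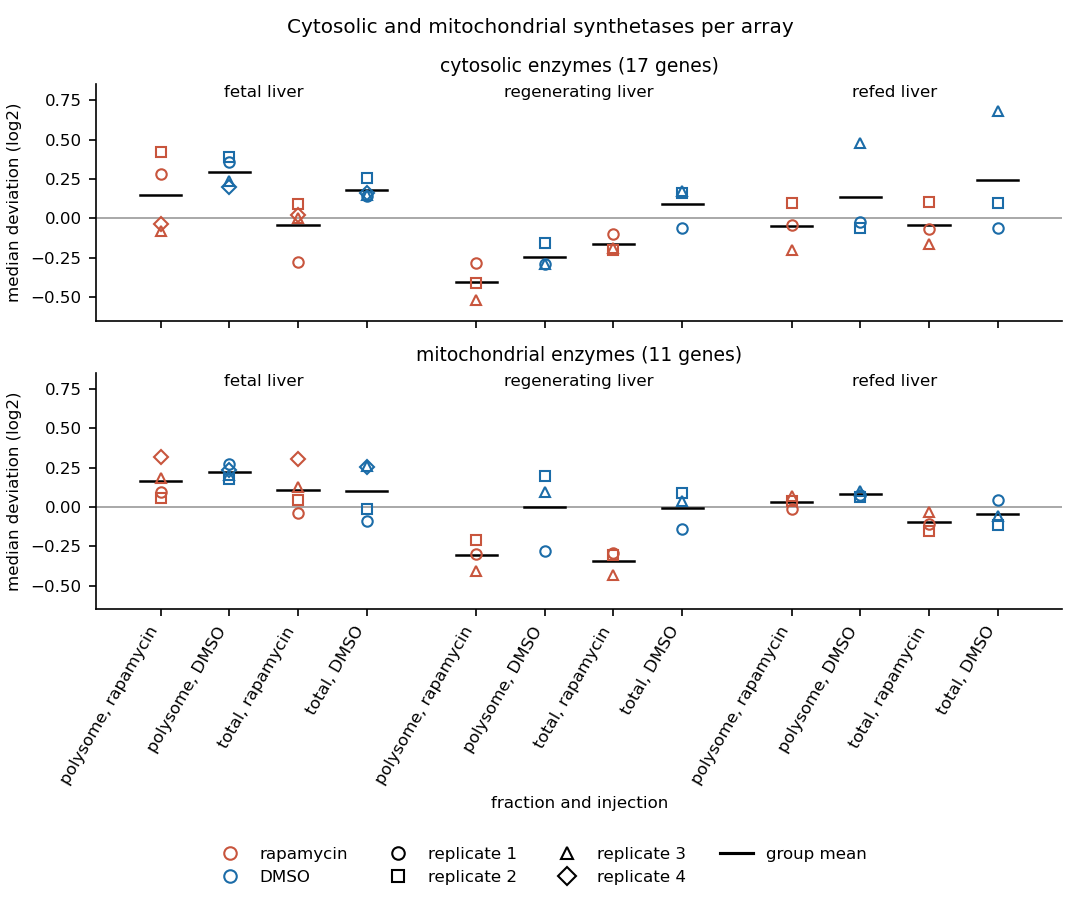
Median difference from the 12-group mean (log2) of the 17 cytosolic and the 11 mitochondrial members on each of the 40 arrays, by group. Refed DMSO liver 3 stands above its group for the cytosolic genes (0.68 in total and 0.48 in polysome RNA) and not for the mitochondrial ones, and both sets lie below 0 in all 6 regenerating rapamycin arrays.

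Rapamycin lowered few single synthetase messages in regenerating liver, though most pointed down. In total RNA 2 of 30 members fell, Yars2 and Nars1 (asparagine), and none rose, against 3.54% of all 10860 tested clusters that fell and 1.47% that rose. Yars2 had 7.96, 8.22 and 7.94 with rapamycin, against 8.53, 8.70 and 8.88 with DMSO. The groups did not overlap (log2 change -0.67, SE 0.13, limma adjusted p = 0.0213). Nars1 had 10.94, 10.63 and 10.66 with rapamycin, against 11.03, 11.34 and 11.31 with DMSO, again without overlap, though rapamycin array 1 and DMSO array 1 were close (-0.48, SE 0.12, adjusted p = 0.0389). The log2 change was below 0 for 29 of 30 members, all but Eprs1 (0.11), against 52.8% of all clusters. The rapamycin arrays lay wholly below the DMSO arrays for 20 members (17.8% of all clusters) and wholly above for 0 (13%). The median change was -0.30 for cytosolic and -0.31 for mitochondrial genes, and -0.01 over all clusters.

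The members of the multisynthetase complex lay nearer 0 in that comparison than the other cytosolic genes. Their median difference was -0.13, with the groups apart for 2 of 7 (Iars1 and Mars1), whereas the other 12 cytosolic or dual genes had a median of -0.37, with the groups apart for 10 of 12. Outside the complex, the subunits of the phenylalanine enzyme differed by -0.49 (Farsa) and -0.52 (Farsb), Vars1 by -0.46, Gars1 (glycine) by -0.46, Yars1 (tyrosine) by -0.41, Wars1 by -0.32, Cars1 by -0.31, Aars1 by -0.30, Hars1 by -0.28, Sars1 (serine) by -0.27 and Tars1 (threonine) by -0.12. In the complex, Iars1 differed by -0.33, Lars1 by -0.16, Mars1 by -0.15, Rars1 by -0.13, Kars1 by -0.12, Qars1 by -0.01 and Eprs1 by 0.11. The mitochondrial genes other than Yars2 ran from -0.41 (Sars2) and -0.40 (Fars2) through Tars2 (-0.34), Hars2 and Lars2 (both -0.31), Aars2 (-0.29), Vars2 (-0.26), Pars2 (-0.20) and Rars2 (-0.15) to Nars2 (-0.11). None of these genes passed the test, and the difference between the sets was not tested.

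In polysome RNA of regenerating livers only Yars2 fell (4.1% of all clusters fell and 2.26% rose). It had 8.66, 8.52 and 8.47 with rapamycin, against 8.92, 9.22 and 8.91 with DMSO, without overlap (-0.47, SE 0.13, adjusted p = 0.0475). Nars1 had 10.74, 10.53 and 10.49 with rapamycin, against 10.91, 11.03 and 10.83 with DMSO; the arrays did not overlap but the adjusted p was 0.0974 (-0.34). The change was below 0 for 26 of 30 members (52.4% of all clusters), the exceptions being Eprs1 (0.25), Qars1 (0.16), Tars1 (0.10) and Rars2 (0.03). The arrays were apart and lower for 7 members, Cars1 (cysteine), Nars1, Vars1, Fars2, Lars2, Sars2 and Yars2, against 15.6% of all clusters, and apart and higher for 0 (11.3%). Median changes were -0.18 for cytosolic, -0.27 for mitochondrial and -0.01 for all clusters. Again the complex (-0.03) had a median nearer 0 than the other cytosolic genes (-0.31).

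These calls were lost under most omissions of 1 array, as were most calls over all clusters. Leaving out the array of regenerating DMSO liver 1 gave 10 members in polysome RNA, 1 of them higher (15.5% of all clusters then passed), and 6 in total RNA, all lower (7.8%). Leaving out rapamycin liver 2 gave 1 in total RNA (4.99%), and every other omission gave 0 in either fraction. The shares of all clusters were then 0.525% to 3.98% in polysome and 0.0368% to 0.0921% in total RNA. Where their calls were lost, Yars2 still changed by -0.52 to -0.37 in polysome and -0.67 to -0.58 in total RNA. Nars1 then changed by -0.58 to -0.43 in total RNA. The share of members at an unadjusted p under 0.05 and lower was 10 of 30 in polysome (15.2% of all clusters) and 16 of 30 in total RNA (14.7%).

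Several known ATF4 targets outside the synthetases, among them the serine synthesis enzymes, fell. Of 30 tested, 9 fell in polysome and 5 in total RNA of regenerating livers and none rose. Over all clusters 4.1% and 3.54% fell in these fractions, and 2.26% and 1.47% rose. The medians of the 30 were -0.36 and -0.29. Among those that passed in polysome RNA, the largest changes were those of Psat1 (-1.92, adjusted p = 0.00095), Phgdh (-1.52, adjusted p = 0.00888) and Psph (-0.98, adjusted p = 0.0186) of serine synthesis, the pseudokinase gene Trib3 (-1.27), the alanine transaminase Gpt2 (-0.87) and the folate enzyme Mthfd2 (-0.79). In total RNA Psat1 changed by -1.86, Phgdh by -1.51, Trib3 by -0.98, Gpt2 by -0.95 and Psph by -0.75. The 13 synthetases known as ATF4 targets had medians of -0.20 and -0.31 in the 2 fractions, and the 6 other cytosolic ones -0.13 and -0.21. These sets were not tested against each other. Of 21 partners of the synthetases (scaffold proteins, elongation factor subunits and tRNA delivery factors), 0 changed in any of the 6 rapamycin comparisons.

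Other cell-state markers moved with rapamycin in the same arrays. Beside the counts below, 4.1% of all clusters fell and 2.26% rose in polysome RNA, and 3.54% fell and 1.47% rose in total RNA. Of 15 mitosis markers 14 fell in each fraction, with a mean level of 8.65 to 9.94 with rapamycin, against 10.70 to 11.10 with DMSO in polysome RNA, and 8.09 to 9.55 with rapamycin, against 10.24 to 10.91 with DMSO in total RNA. Of 9 endothelial markers 4 rose in each fraction (9.89 to 10.01 with rapamycin, against 9.27 to 9.72 with DMSO in polysome RNA, and 10.28 to 10.37, against 9.70 to 10.01 in total RNA). Of 10 stellate cell markers 1 rose in polysome RNA (9.05 to 9.15 with rapamycin, against 8.65 to 9.06 with DMSO, overlapping) and 0 changed in total RNA, where their mean level lay apart (9.84 to 9.96 with rapamycin, against 9.51 to 9.68 with DMSO). Of 12 macrophage markers 1 rose in polysome RNA, with the mean levels apart (10.37 to 10.53 with rapamycin, against 9.81 to 10.32 with DMSO), and 0 changed in total RNA, where they overlapped (10.49 to 10.71, against 10.32 to 10.70). Of 10 hepatocyte markers 0 changed in either fraction. The part of these differences in the synthetase values was not tested.

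In refed liver no member passed the test for rapamycin in either fraction, and neither did any of the 10860 clusters (0% in each direction). In total RNA the median change was -0.26 for cytosolic and -0.08 for mitochondrial genes, with 22 of 30 below 0 (45.1% of all clusters). The arrays of the groups were apart and lower for 7 members (5.11% of all clusters) and apart and higher for 1, Tars2 (8.6%). Iars1 had 10.85, 10.77 and 10.67 with rapamycin, against 11.41, 11.05 and 12.07 with DMSO (-0.74, unadjusted p = 0.00696, adjusted p = 0.237). The spread of its DMSO arrays came mostly from liver 3. At an unadjusted p under 0.05, 4 members were lower (Iars1, Hars1, Nars1 and Farsa; 4.68% of all clusters). In polysome RNA the medians were -0.20 and -0.02, with 19 of 30 below 0 (49.5%). The arrays were apart and lower for Farsa, Hars1, Nars1 and Yars2 (9.17% of all clusters) and apart and higher for Mars1 and Gars1 (8.66%), and 3 members were lower at that level (Yars2, Hars1 and Farsa; 2.57% of all clusters). Yars2 had 9.06, 8.82 and 8.64 with rapamycin, against 9.28, 9.35 and 9.55 with DMSO, without overlap (-0.55, unadjusted p = 0.0037, adjusted p = 0.705).

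Without DMSO liver 3 the medians in refed liver lay near 0. They were then -0.05 for cytosolic and -0.04 for mitochondrial genes in total RNA and 0.02 and -0.02 in polysome RNA. Yars2 in polysome RNA still differed by -0.47 and Iars1 in total RNA by -0.46, and 0 members passed the test. Leaving out DMSO liver 2 in total RNA gave 1 member and 16.2% of all clusters, against 0 of both with all livers.

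In fetal liver no member passed the test for rapamycin in either fraction, and 0% of all clusters passed in either direction. The differences were small: the cytosolic median was -0.10 in polysome and -0.16 in total RNA, the mitochondrial median -0.04 and -0.01. In total RNA 16 of 17 cytosolic and 6 of 11 mitochondrial genes lay below 0 (55.3% of all clusters). Cars1 had 9.09, 9.37, 9.38 and 9.50 with rapamycin, against 9.69, 9.69, 9.74 and 9.73 with DMSO. All 4 rapamycin arrays lay below all 4 DMSO arrays, as for 0.663% of all clusters (-0.38, SE 0.12, unadjusted p = 0.00515), but the adjusted p was 1. It was the only member lower at an unadjusted p under 0.05 in fetal total RNA (1.3% of all clusters). In polysome RNA 27 of 30 members lay below 0 (58.2% of all clusters), and 0 reached an unadjusted p under 0.05 (0.479% of all clusters higher and 1.8% lower).

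**Figure D3:**
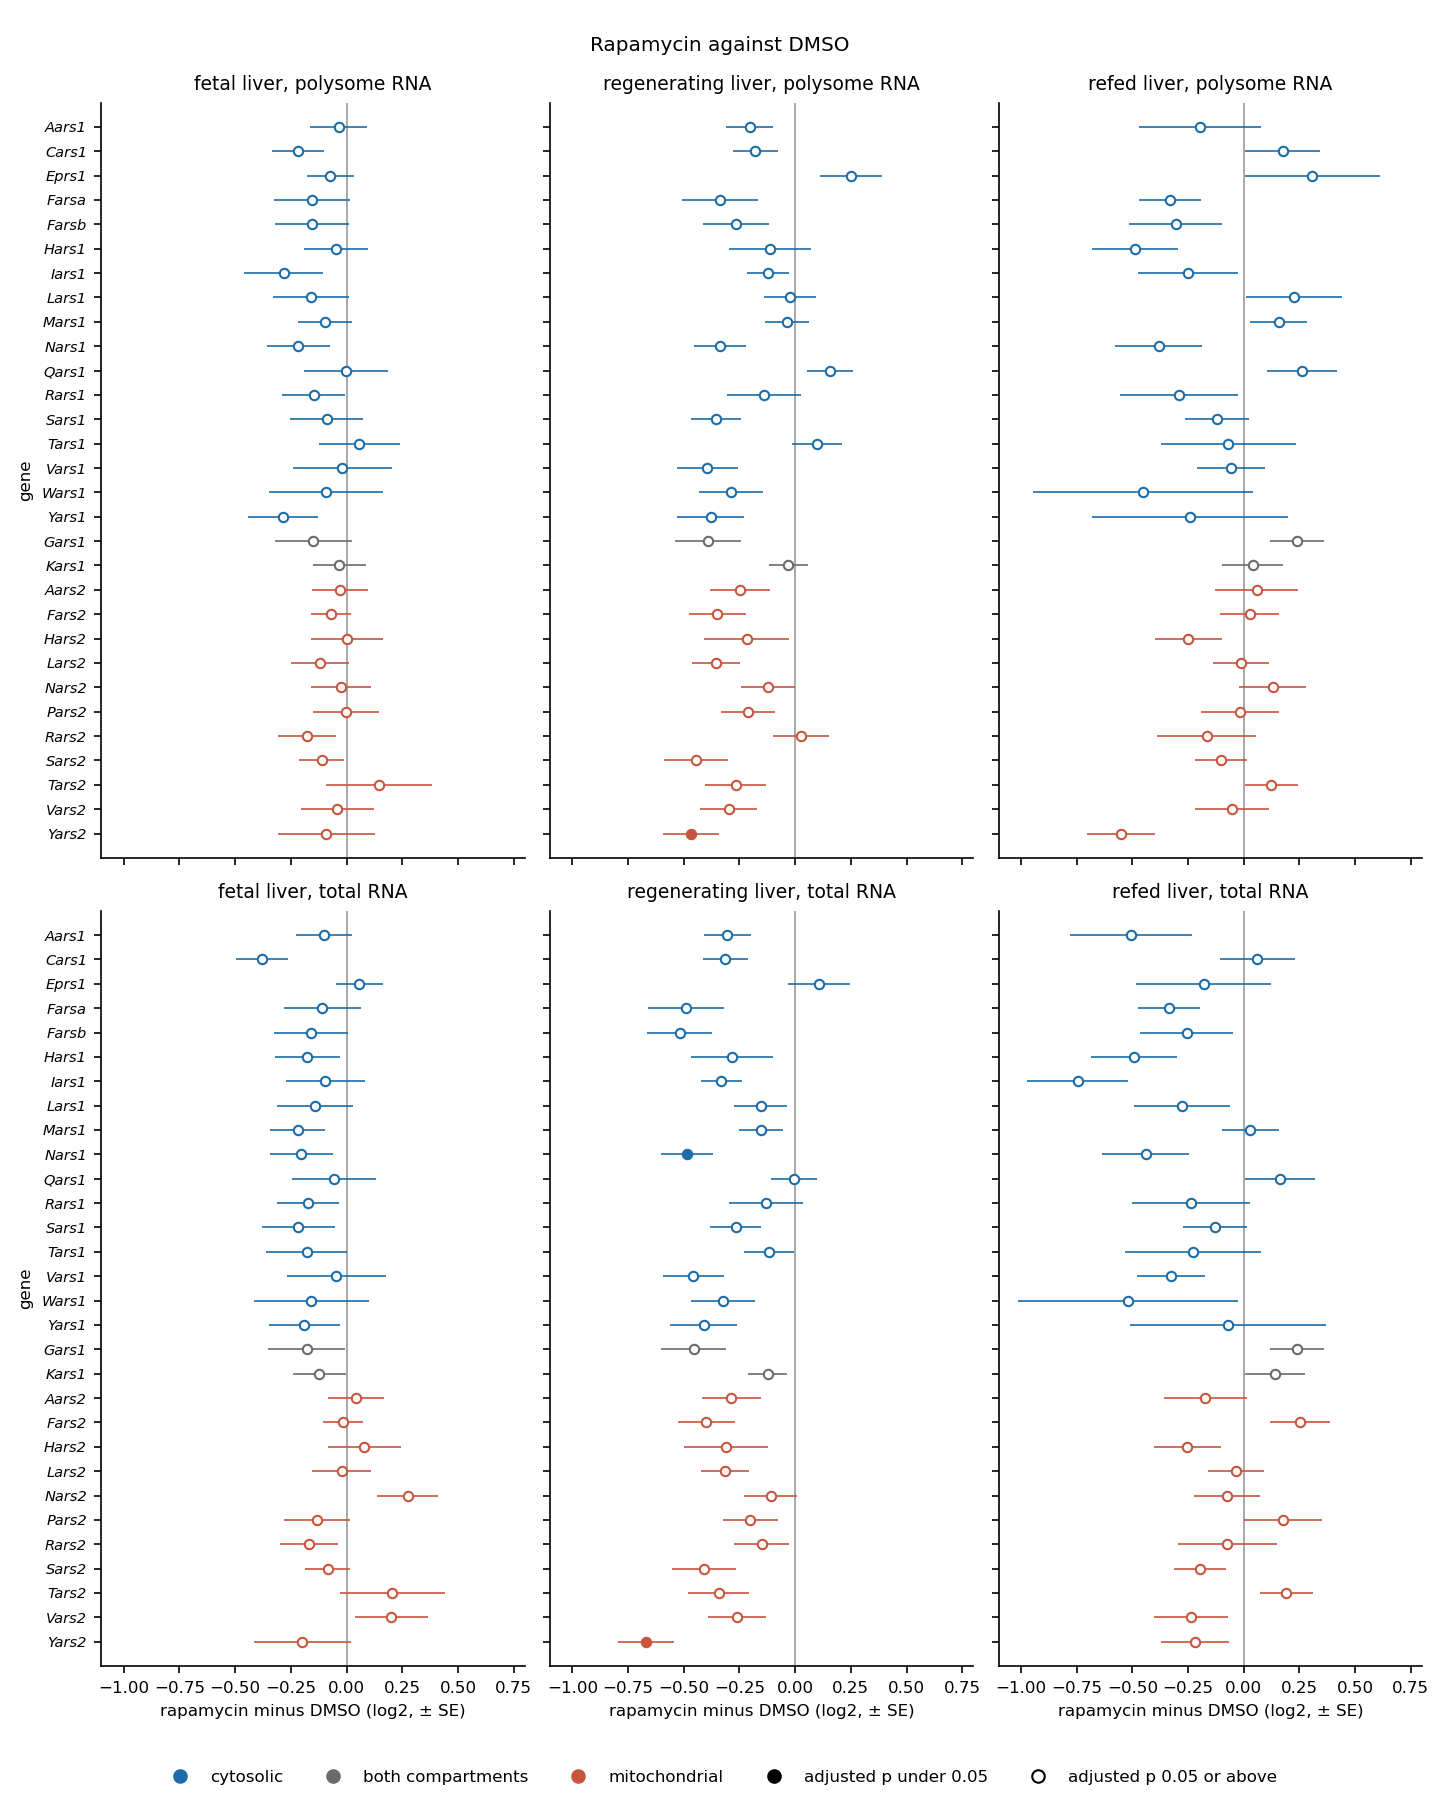
Log2 change of each member with rapamycin (rapamycin minus DMSO, point and SE) in the 3 models and 2 fractions; filled points passed the test (adjusted p under 0.05). Filled points are Yars2 in both regenerating panels and Nars1 in regenerating total RNA.

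Whether rapamycin changed polysome and total RNA differently was tested within each model, and whether its effect differed among models within each fraction. The interaction of rapamycin with fraction called 0 members and 0% of all clusters in each model. At an unadjusted p under 0.05 it also held 0 members, against 0.985% of all clusters lower and 0.47% higher in regenerating, 2.12% lower and 0.331% higher in refed, and 0.23% lower and 0.184% higher in fetal livers. Its cytosolic and mitochondrial medians were 0.13 and 0.04 in regenerating, 0.10 and 0.01 in refed and 0.03 and -0.06 in fetal livers. The F-test across the 3 models called 0 members in polysome RNA (0.0368% of all clusters) and 0 in total RNA (0.424%). At an unadjusted p under 0.05 it held Gars1 in polysome RNA (5.72% of all clusters) and Cars1, Gars1 and Fars2 in total RNA (15.4%). A difference of the rapamycin effect between fractions or between models was therefore not shown for any synthetase, Yars2 included (adjusted p = 0.52 across models in total RNA).

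Polysome RNA was compared with total RNA in the DMSO livers of each model. Equal RNA (100 ng) was the input for each array, and the intensities were normalised by RMA. A lower value on polysomes is therefore relative to the other messages there. In regenerating liver, 10 of 30 members were lower in polysome than in total RNA and 0 were higher, against 15% of all clusters lower and 28.8% higher. All but Aars2, the mitochondrial alanine enzyme, were cytosolic. Lars1 had 9.71, 9.61 and 9.38 in polysome RNA, against 10.37, 10.51 and 10.59 in total RNA (-0.93, SE 0.12, adjusted p = 0.000103). Iars1 had 10.01, 10.11 and 9.95 in polysome RNA, against 10.77, 11.03 and 11.00 in total RNA (-0.91, SE 0.09, adjusted p = 2.91e-05). The polysome arrays of both genes lay below every total array by more than the spread within either group. Eprs1 had 11.53, 11.07 and 10.99 in polysome RNA, against 12.11, 11.82 and 12.11 in total RNA (-0.81, SE 0.14, adjusted p = 0.000707). Aars1 (alanine) had 11.62, 11.41 and 11.11 in polysome RNA, against 12.18, 12.08 and 12.08 in total RNA (-0.73, SE 0.11, adjusted p = 0.000256). Neither gene's arrays overlapped between the fractions. Cars1 and Qars1 each changed by -0.55 (adjusted p = 0.00121 and 0.00125). Smaller and less stable changes were those of Vars1 (-0.44), Aars2 (-0.40), Mars1 (-0.31) and Tars1 (-0.30), with adjusted p from 0.0216 to 0.0485.

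By position in the cell, the median change was -0.31 for cytosolic and 0.06 for mitochondrial genes, and 0.09 over all clusters. Within the cytosolic and dual genes, 5 of 7 members of the multisynthetase complex fell (median -0.55; all but Rars1 and Kars1), and 4 of 12 outside it (median -0.10). Of the 13 known ATF4 targets among the cytosolic and dual genes 8 fell (median -0.31; Lars1, Iars1, Eprs1, Aars1, Cars1, Vars1, Mars1 and Tars1), and of the other 6 only Qars1 (median -0.05). At the other end, Yars2 (0.31, adjusted p = 0.064) and Pars2, the mitochondrial proline enzyme (0.27, adjusted p = 0.0949), were higher in polysome RNA with no overlap of the arrays (32.1% of all clusters) and did not pass; 11 members were lower with no overlap (18.7%). Polysome and total arrays of 1 treatment and number were taken as the same liver. With the liver as a block 14 members passed: the 10 above, Nars1 and Rars1 lower, and Pars2 (adjusted p = 0.0184) and Yars2 (adjusted p = 0.0201) higher, against 22% of all clusters lower and 39.1% higher. In the livers given rapamycin 8 members were lower, Lars1 (-0.79), Iars1 (-0.70), Eprs1 (-0.67), Aars1 (-0.63), Cars1 (-0.41), Qars1 (-0.39), Vars1 (-0.38) and Aars2 (-0.36), and Yars2 was higher (0.51), against 14.4% lower and 27.8% higher of all clusters. The calls of Aars1, Cars1, Eprs1, Iars1, Lars1 and Qars1 held under every alternative tried and without each liver; Vars1 lost its call without liver 3, and Aars2, Mars1 and Tars1 lost theirs without any one of the livers.

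**Figure D4:**
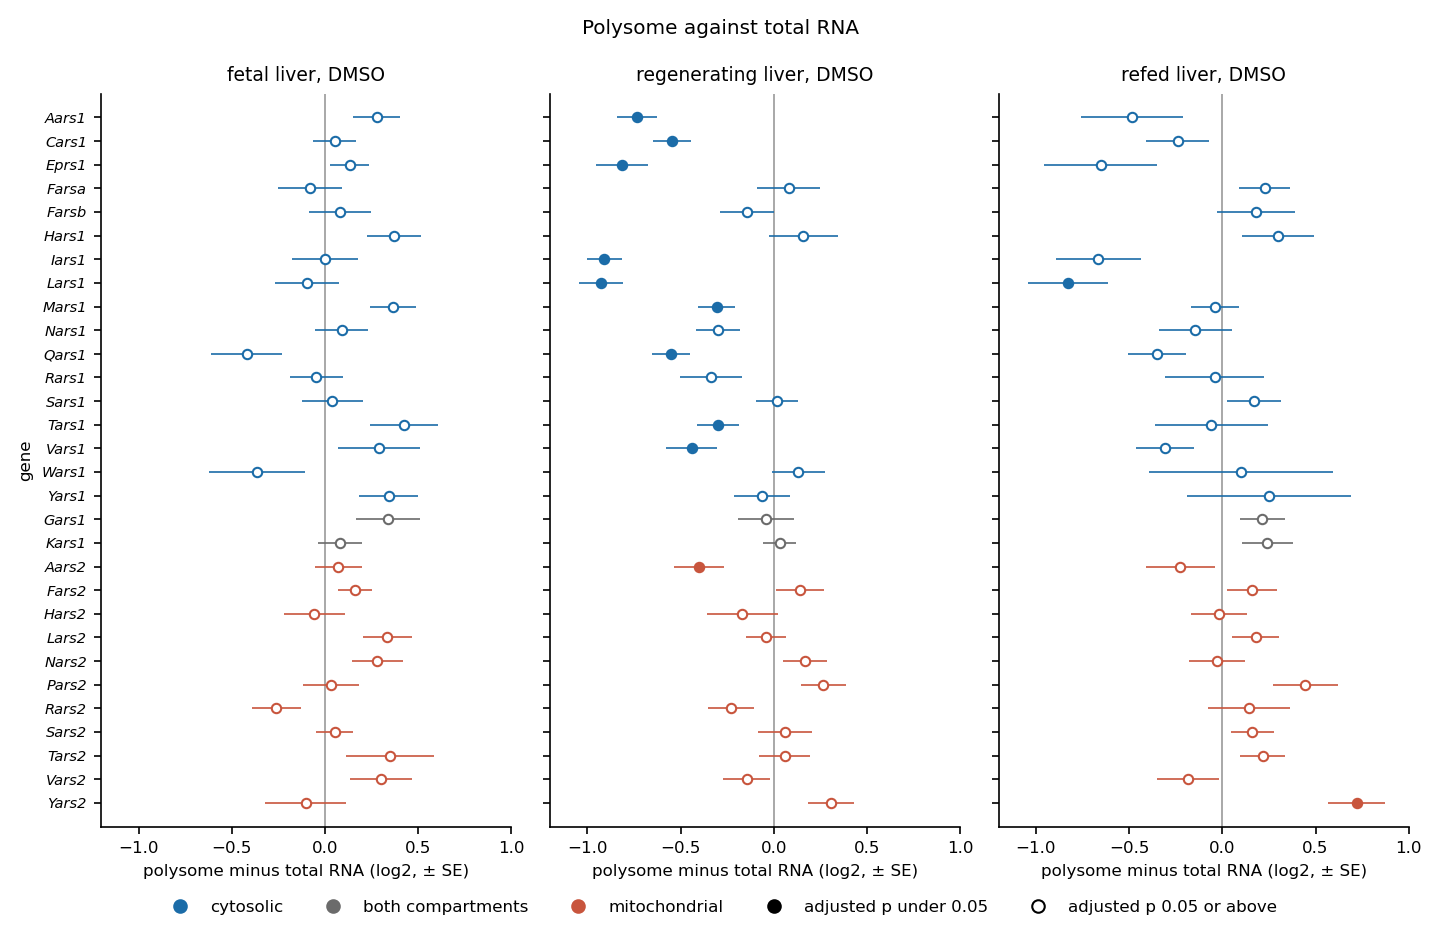
Log2 difference of each member between polysome and total RNA (polysome minus total, point and SE) in DMSO livers of the 3 models; filled points passed the test (adjusted p under 0.05). Filled points are 10 in regenerating liver, all below 0, Lars1 below 0 and Yars2 above 0 in refed liver, and 0 in fetal liver.

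In refed DMSO livers the same comparison called Lars1 lower and Yars2 higher in polysome RNA, against 5.14% of all clusters lower and 19.5% higher. Lars1 had 9.82, 9.67 and 10.02 in polysome RNA, against 10.53, 10.27 and 11.19 in total RNA (-0.83, SE 0.21, adjusted p = 0.0169). Yars2 had 9.28, 9.35 and 9.55 in polysome RNA, against 8.64, 8.84 and 8.53 in total RNA (0.72, SE 0.15, adjusted p = 0.0062). Neither gene's arrays overlapped. With the liver as a block 6 members were lower (Lars1, Iars1 -0.66, Eprs1 -0.65, Aars1 -0.49, Qars1 -0.35 and Vars1 -0.31) and Yars2 and Pars2 (0.44) were higher, against 10.8% lower and 31.7% higher of all clusters. Without liver 3 Lars1 kept its call (-0.66, adjusted p = 0.0327) and Yars2 did not (0.57, adjusted p = 0.0577); without liver 1 Lars1 lost its call. In refed livers given rapamycin 0 members passed (1.05% of all clusters lower and 3.27% higher), with Lars1 at -0.32 and Yars2 at 0.39. The median change with DMSO was -0.06 for cytosolic and 0.16 for mitochondrial genes, and 0.10 over all clusters.

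In fetal DMSO livers 0 members passed (6.38% of all clusters lower, 8.1% higher), and the medians were 0.08 for cytosolic and 0.07 for mitochondrial genes. At an unadjusted p under 0.05, 6 members were higher in polysome RNA, Tars1 (0.42), Hars1 (0.37), Mars1 (0.36), Yars1 (0.34), Lars2 (0.33) and Aars1 (0.28), against 17.6% of all clusters, and Qars1 was lower (-0.42; 12.1%). With the liver as a block 5 passed: Tars1, Yars1, Gars1 (0.34) and Lars2 higher and Qars1 lower, against 15.9% higher and 12.1% lower of all clusters. In fetal livers given rapamycin Tars1 (0.66), Hars1 (0.50) and Mars1 (0.49) were higher (8.8%) and 0 were lower (7.15%).

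The difference between polysome and total RNA itself differed among the 3 models for 5 members by the F-test over the DMSO livers (7.44% of all clusters): Mars1 (adjusted p = 0.0169), Aars1 (0.0214), Eprs1 (0.0424), Iars1 (0.043) and Lars1 (0.046). All but Aars1 belong to the multisynthetase complex. In fetal, regenerating and refed livers, the polysome minus total difference was 0.28, -0.73 and -0.49 for Aars1, 0.13, -0.81 and -0.65 for Eprs1, -0.00, -0.91 and -0.66 for Iars1, -0.10, -0.93 and -0.83 for Lars1 and 0.36, -0.31 and -0.04 for Mars1. Each of the 5 had a lower difference in both adult models than in the fetal one; pairs of models were not tested. The same 5 passed without the refed DMSO liver 3 (3.81% of all clusters), and 9 passed with the liver as a block, adding Cars1, Tars1, Vars1 and Yars2 (24.7%). Leaving out 1 liver number of a model gave 0 to 5 members, with 0 without regenerating liver 3 or without fetal liver 4. Without fetal liver 1 the test gave 1 member, which was not among the 5. Over these 10 omissions Lars1 kept its call in 1, Eprs1 and Iars1 in 2 each, Aars1 in 4 and Mars1 in 6.

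**Figure D5:**
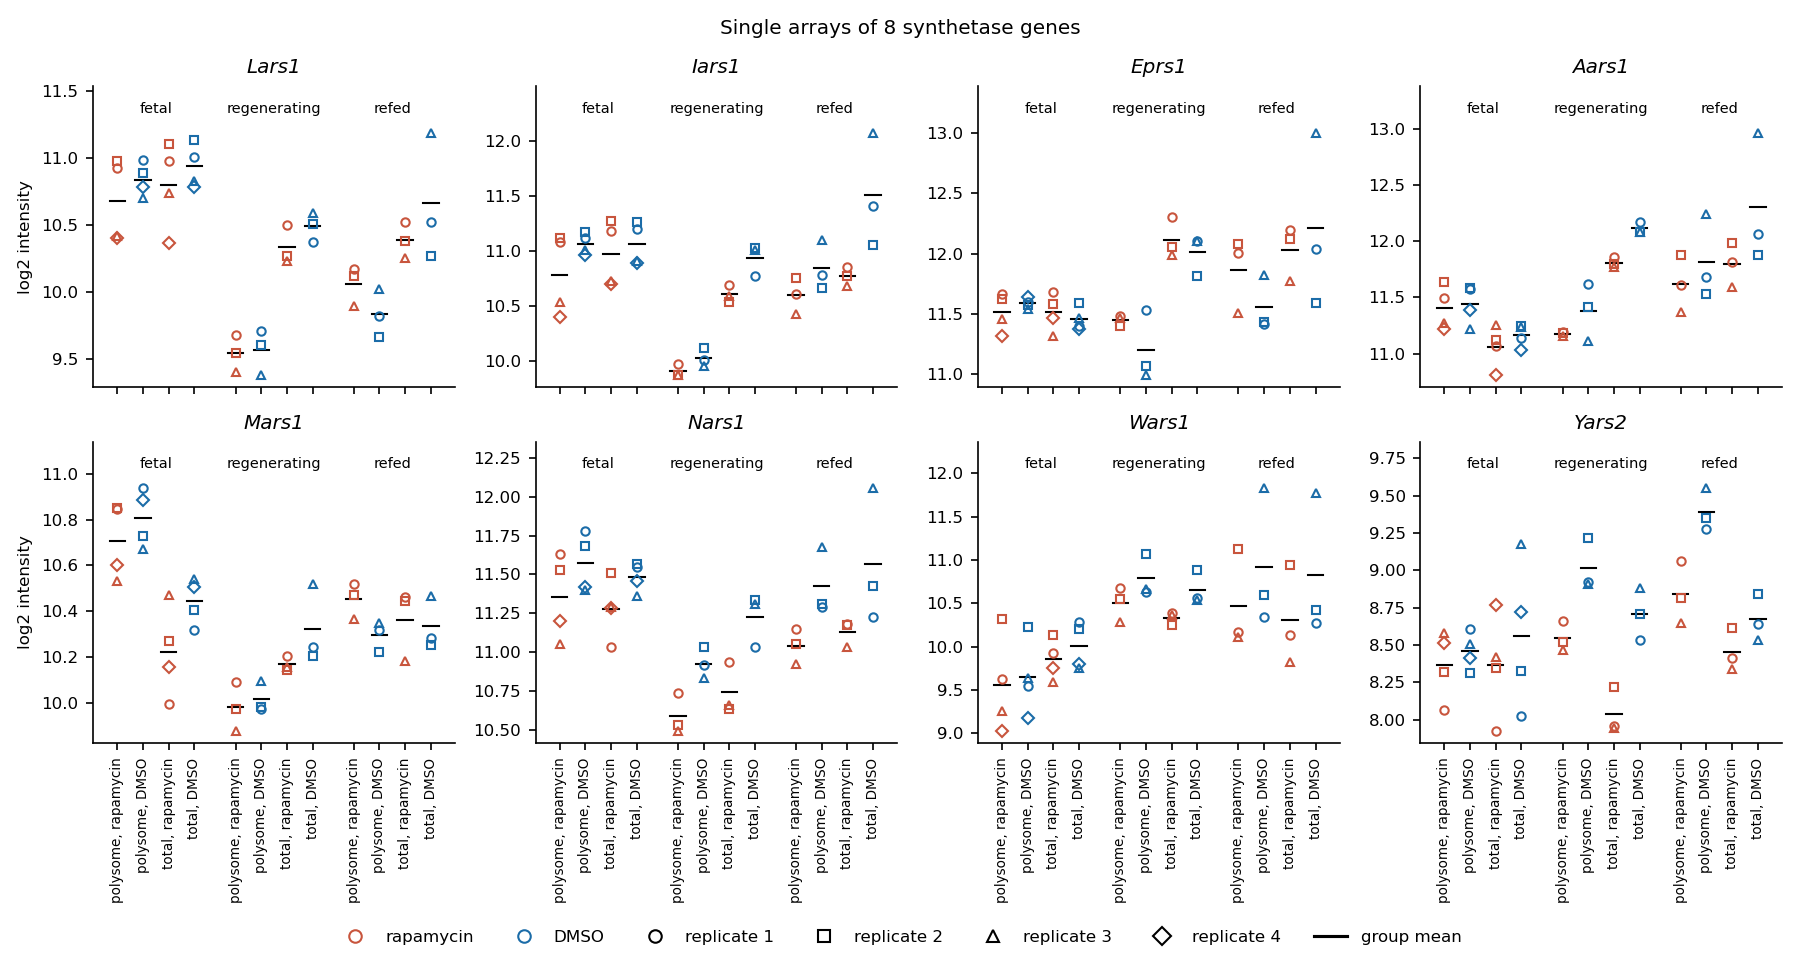
Log2 intensity on single arrays of 8 members (Lars1, Iars1, Eprs1, Aars1, Mars1, Nars1, Wars1 and Yars2) by model and fraction; red points are rapamycin and blue points DMSO arrays, shapes give the replicate number and lines the group mean. In regenerating livers the polysome arrays of Lars1 and Iars1 lie wholly below their total arrays, in fetal livers they overlap, and refed DMSO liver 3 is the highest point of its group for Wars1.

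Among 21 partners of the synthetases, more were higher than lower in polysome RNA of the adult livers, as over all clusters. In regenerating DMSO livers 7 of 21 were higher and 1 was lower (28.8% and 15% of all clusters), and in refed livers 8 were higher and 0 lower (19.5% and 5.14%). The complex scaffold gene Eef1e1 differed by 1.28 in regenerating and 1.15 in refed livers, the D-aminoacyl-tRNA deacylase gene Dtd1 by 1.02 and 1.25, Gatc, a subunit of the mitochondrial glutaminyl-tRNA amidotransferase, by 0.94 and 1.01, and the scaffold gene Aimp2 by 0.46 and 0.73. In fetal livers Xpot, the tRNA export receptor, was higher (0.53) and the scaffold gene Aimp1 lower (-0.53), against 8.1% and 6.38% of all clusters. The stellate cell markers were lower in polysome RNA in all 3 models, 6, 5 and 7 of 10 in regenerating, refed and fetal livers (mean level 8.65 to 9.06 in polysome against 9.51 to 9.68 in total RNA of regenerating livers). Hepatocyte markers were lower for 6, 5 and 0 of 10, and endothelial markers for 6, 3 and 4 of 9. Their part in the synthetase differences was not tested.

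Total RNA of the DMSO livers was compared between models. Between fetal and regenerating livers 9 of 30 members differed: Hars1 (0.63), Qars1 (0.57), Sars1 (0.52), Lars1 (0.45), Nars2 (0.44) and Lars2 (0.42) were higher in fetal liver (19.9% of all clusters), and Aars1, Tars1 (-0.61) and Eprs1 (-0.55) were lower (17%). Aars1 was the lowest: it had 11.14, 11.24, 11.24 and 11.03 in fetal livers, against 12.18, 12.08 and 12.08 in regenerating livers (-0.95, SE 0.18, adjusted p = 7.26e-05). The refed livers had 12.07, 11.88 and 12.96, also above every fetal array. Lars2, the mitochondrial leucine enzyme, had 8.93, 8.79, 9.17 and 9.05 in fetal livers, against 8.42, 8.64 and 8.63 in regenerating and 8.46, 8.32 and 8.38 in refed livers. All fetal arrays of Lars2 lay above all adult ones.

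Between fetal and refed livers 12 members differed, 6 higher in fetal liver (Qars1 0.63, Lars2 0.60, Pars2 0.53, Vars1 0.49, Sars1 0.47 and Cars1 0.33; 28.1% of all clusters) and 6 lower (Aars1 -1.14, Wars1 -0.81, Eprs1 -0.75, Tars1 -0.61, Iars1 -0.45 and Hars2 -0.43; 19%). Without refed liver 3 this became 7 higher, with Lars1 (0.54) added, and Aars1 alone lower (-0.81, adjusted p = 0.000164), with 41.3% of all clusters differing in either direction; Eprs1 was then at -0.36 (adjusted p = 0.0792). Between regenerating and refed livers Pars2 was higher (0.51, adjusted p = 0.0275; 12.4% of all clusters) and Iars1 (-0.58, adjusted p = 0.0354) and Nars2 (-0.51, adjusted p = 0.0117) were lower (5.03%). Without refed liver 3 only Nars2 passed (-0.48, adjusted p = 0.0493; 11.6% of all clusters), with Iars1 at -0.30 and Pars2 at 0.44. Without refed liver 1 none of the 3 passed and 1 other member did (11.2%). Only 1 of the 3 passed without regenerating liver 2 (2 members in all, 11.6%) and without regenerating liver 3 (10.3%). Over the 6 omissions of 1 array Iars1 kept its call in 1, Pars2 in 2 and Nars2 in 5. Fetal against refed liver gave 7 members without refed liver 1 (41.3%). The calls of Aars1, Lars2 and Qars1 in both fetal comparisons, and of Sars1 and Nars2 between fetal and regenerating livers, held under every alternative tried and without each liver.

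Fetal liver also held other cells. Of 10 erythroid markers all were higher in fetal than in adult livers (mean level 11.76 to 12.57 in fetal, against 8.11 to 8.35 in regenerating and 7.74 to 8.27 in refed livers), and so were all 7 lymphocyte and granulocyte markers (10.38 to 10.51 in fetal, against 6.75 to 6.91 in regenerating and 6.71 to 7.10 in refed livers). The mitosis markers averaged 9.80 to 10.58 in fetal, 10.24 to 10.91 in regenerating and 5.94 to 6.13 in refed livers. Their part in the synthetase differences was not tested. Of the 30 ATF4 targets outside the synthetases, 14 were higher and 3 lower in fetal than in regenerating livers. Psat1 (2.02), the amino acid transporter gene Slc7a5 (1.86) and the asparagine synthetase gene Asns (1.85) led. Of the 13 synthetases known as ATF4 targets 2 were higher (Lars1 and Sars1) and 3 lower (Aars1, Eprs1 and Tars1). Over all clusters 19.9% were higher and 17% lower in fetal than in regenerating livers, and 28.1% and 19% in fetal than in refed livers. The 2 sets of ATF4 targets were not tested against each other.

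The histidine pair that shares its start region was compared between models. In total RNA with DMSO, Hars1 had 10.66, 10.77, 11.01 and 11.11 in fetal livers, against 9.94, 10.60 and 10.22 in regenerating livers (0.63, adjusted p = 0.00417). That call was lost with the mean over both Hars1 clusters (0.31, adjusted p = 0.103) and without regenerating liver 1 (0.48, adjusted p = 0.058). Hars2 had 8.47, 8.70, 9.14 and 8.87 in fetal livers, against 8.55, 9.03 and 9.14 in regenerating livers, which overlapped (-0.11, adjusted p = 0.655). Against refed liver the fetal difference was 0.12 for Hars1 and -0.43 for Hars2 (adjusted p = 0.0403). The Hars2 call was lost without refed liver 3 (-0.42, adjusted p = 0.0913), and it was kept in 2 of 7 omissions of 1 array. It was also lost without the intensity filter and when fitted on the 2 groups alone. With rapamycin in regenerating livers the pair differed by -0.28 and -0.31 in total RNA, and neither passed. The difference between both genes was not tested.

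Members outside the mitochondrial set were also described by whether their promoter window held TTGCATCA. Of the 17 with a window, 7 held the letters and 10 did not (9 cytosolic genes and Kars1). The median differences with rapamycin in regenerating livers were -0.18 in polysome and -0.31 in total RNA for the 7, and -0.19 and -0.27 for the 10. In refed livers they were -0.20 in polysome and -0.23 in total RNA for the 7, and -0.09 and -0.27 for the 10. In fetal livers they were -0.22 in polysome and -0.19 in total RNA for the 7, and -0.08 and -0.13 for the 10. Between polysome and total RNA of regenerating DMSO livers, 5 of the 7 fell (median -0.31) and 4 of the 10 (median -0.06), against 15% of all clusters. The sets were not tested against each other.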

How the data were processed

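The deposited values were linear intensities of Affymetrix whole-transcript arrays, which the authors had normalised and summarised by RMA per the submitters' processing notes; its version and settings and the genome build of the probes were not given in the sources used here. They were taken to log2, and of the 28826 transcript clusters the 13311 without a gene symbol were left out. Of those with a symbol, the 10860 with a mean log2 intensity of at least their percentile 30 (6.70) were tested. Shares and medians given for all clusters refer to these 10860. Gene names came from the platform annotation; all 30 members matched RefSeq by Entrez number and no symbol changed. Each model was fitted with limma 3.58.1 (R 4.3.3) on its 4 groups (8 residual degrees of freedom in the adult models, 12 in the fetal one), and comparisons between models on all 40 arrays (28), with empirical Bayes and an intensity trend. Without a liver block, the polysome and the total array of 1 liver entered these fits as separate arrays. The p-values, those for rapamycin included, do not allow for their correlation. P-values were adjusted by Benjamini-Hochberg over all tested clusters at 0.05, and tests were two-sided. The fits for rapamycin in regenerating polysome RNA and for rapamycin by fraction there were tried on simulated data. The simulated arrays were independent, so that trial says nothing about the correlation of the polysome and the total array of 1 liver. Members and gene lists were chosen with earlier results of these data known. All members are named; genes of the ATF4 and partner lists are named where past the threshold, up to 6 per comparison by size, and marker lists are given as counts and ranges. Deviations of polysome and total arrays of one treatment and number correlated (r from 0.33 to 0.82), and the number was taken to mark the liver. Rapamycin and DMSO arrays of one number also correlated in fetal livers (0.42 to 0.75), though they are different livers. They did not throughout in regenerating (-0.07 to 0.28) or refed livers (-0.62 to 0.39). In fetal livers the correlation therefore cannot tell a shared liver from another link between arrays of one number. No 2 arrays were alike (smallest root mean square difference 0.233). The number of arrays limits the precision. One promoter stretch is not reported here.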

Additional observations from a re-analysis of the deposited data

Results flagged for a closer look

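Of 132 groups of 4 fetal arrays (120 of single members and 12 of compartment medians), 4 held an array far from the other 3 by Dixon's criterion, where chance gives about 1 in 20. Cars1 was at 9.96 in fetal polysome DMSO liver 2, with the others from 9.69 to 9.70. Fars2 was at 9.02 in fetal polysome rapamycin liver 4, with the others from 8.92 to 8.93. In fetal total RNA of rapamycin liver 2, Farsb was at 10.97 (others 10.63 to 10.68) and Gars1 at 12.18 (others 11.62 to 11.65). The polysome minus total difference of the DMSO livers differed among the 3 models, by the limma F-test, for Aars1 (adjusted p = 0.0214), Eprs1 (0.0424), Iars1 (0.043), Lars1 (0.046) and Mars1 (0.0169), as described above.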

How the results depend on the processing

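Under settings other than leaving out a replicate, 118 counts of called members stayed within 1.5 times of the reported count and 26 did not. Numbers in brackets below are the clusters called under the same setting. Rapamycin in regenerating polysome RNA called 0 members after cyclic loess (717), after median centring (579) and without the intensity filter (482). With the replicate number as a block it called 4 (1481), against 1 (690) in the main fit. In total RNA it called 1 after cyclic loess (526) and 0 with all 40 arrays in the fit (217). With that block it called 7 (1246), against 2 (544) in the main fit. The regenerating numbers do not pair the livers, and the replicate block moved no count of rapamycin calls in fetal liver. Rapamycin in refed total RNA called 1 with all 40 arrays (349), against 0 (0) in the main fit. Polysome against total RNA called, in regenerating liver, 6 with all 40 arrays (2840). In refed liver it called 5 after cyclic loess (2395), 5 with all 40 arrays (3376) and 8 with the liver as replicate block (4615). In refed rapamycin livers, an alternative chosen after seeing the data, it called 0 (469). In fetal liver it called 1 after cyclic loess (1582), 2 after median centring (1713) and 1 with the stricter filter (1510). There it also called 3 with all 40 arrays (2117) and 1 with the mean over all clusters of a gene (1577). With the liver block it called 5 in fetal liver (3044), and in fetal rapamycin livers 3 (1732). Regenerating against refed liver called 0 (620) when fitted on its 2 groups alone, against 3 (1898) in the main fit. Fetal against refed liver then called 3 (3402), against 12 (5114). The rapamycin F-test across models in total RNA called 1 with the number as a block (325). The F-test of polysome against total RNA called 2 after median centring (918), 2 without the filter (617) and 9 with the liver block (2679). The cytosolic minus mitochondrial median of polysome against total RNA in regenerating liver was -0.21 in rapamycin livers, and the level difference after cyclic loess was 0.18 in fetal polysome DMSO and 0.0484 in regenerating total DMSO arrays. Leaving out 1 replicate in turn gave these ranges of called members, with those of all clusters in brackets. Rapamycin gave 0 to 10 in regenerating polysome (57 to 1687) and 0 to 6 in regenerating total RNA (4 to 847). In refed liver it gave 0 to 0 in polysome (0 to 1) and 0 to 1 in total RNA (0 to 1756). In fetal liver it gave 0 to 0 (0 to 0). Polysome against total RNA gave 7 to 8 in regenerating (2990 to 4437) and 1 to 3 in refed liver (924 to 2867). In fetal liver it gave 0 to 0 (522 to 839). Regenerating against refed gave 1 to 4 (1119 to 2890) and fetal against refed 7 to 10 (4482 to 5191). Fetal against regenerating gave 6 to 9 (3222 to 3783). F-tests gave 0 to 0 for rapamycin in polysome (2 to 27) and total RNA (1 to 443). For polysome against total they gave 0 to 5 (253 to 1647). The cytosolic minus mitochondrial median of the rapamycin change in regenerating polysome RNA ranged from -0.0918 to 0.236. The cause was not tested. No call outside the F-tests reversed its direction. In the F-test of polysome against total RNA, the regenerating minus refed contrast of Lars1 was -0.10 with all livers. It was 0.04 without the regenerating livers numbered 3.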
